A study of Mus musculus with 8 samples.

Results

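The 4 arrays hybridised with RNA of late passage mouse embryonic fibroblasts, 1 for each combination of genotype and background, compare cells without Smurf2 and wild-type cells after long culture. The set holds 8 arrays, and the other 4 are the same combinations at early passage. Fibroblasts lacking Smurf2 (Smurf2-/-) were set against wild-type fibroblasts at passage 28 in the C57B6 background and at passage 33 in a mixed background derived from the 129SVJ and NIH Black Swiss strains (mixed BL). The early arrays were taken at passage 7 in C57B6 and at passage 6 in mixed BL. In C57B6 a single embryo (1 per culture) was the source, whereas in mixed BL cells of 3 embryos were pooled for Smurf2-/- and of 2 for wild-type. Sample descriptions put the embryos at day 14.5 and the growth protocol at day 11.5, and the labels do not say whether early and late arrays were passages of 1 culture. The genes described are autosomal genes with a single symbol, of which 16903 were measured. Of these, 186 differed by at least 2-fold in the same direction in both late pairs, 480 differed by at least 2-fold in 1 background and by under 0.25 on the log2 scale in the other, and 40 differed by at least 2-fold in opposite directions.

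Smurf2 belongs to the NEDD4 family of HECT ubiquitin ligases. It binds the inhibitory Smads and through them the receptors for TGF-beta and BMP ligands, which it marks for degradation together with receptor-activated Smads, and it also acts on cell cycle and chromatin proteins. Fibroblasts in long culture normally slow their division and enter senescence, a state in which genes for DNA replication and mitosis are silenced, unless they escape and grow on as an immortal line.

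Values are log2 signals that the authors centred on the median of each transcript cluster over the 8 arrays, so a value of 0 is the middle of the 8 and the level of a gene cannot be compared with that of another. Where 2 values are given for a genotype they are those of C57B6 and mixed BL, in that order. Smurf2 itself stood at -1.21 and -1.19 on the late Smurf2-/- arrays and at 0.64 and 0.43 on the late wild-type arrays. The late difference was -1.74 ± 0.15 (SE, n = 2 against 2), 3.33-fold, with a limma adjusted p of 0.117, and it is not known here if its probes cover what was deleted. Of the 40 measured genes nearest to Smurf2 on its chromosome, 0 passed 2-fold in both late pairs. That count is near the share of all autosomal genes that did, 1.1%. In each single late pair 1 neighbour was 2-fold higher, Kpna2 (1.005) in C57B6 and Tex2 (1.041) in mixed BL. Of all autosomal genes 2.08% and 2.15% were. The genotypes also differed in sex-linked RNA: Xist, the RNA that silences an X chromosome, stood at -1.82 and -2.07 on the late Smurf2-/- arrays against 2.93 and 2.41 on wild-type arrays. The Y-linked genes Uty, Kdm5d and Eif2s3y were higher on both late Smurf2-/- arrays, by 2.08 ± 0.10, 2.20 ± 0.22 and 3.13 ± 0.31 (SE). Embryo sex and genotype cannot be told apart in any difference given here. Fibroblast identity was checked with markers: 12 of 17 fibroblast markers, Col1a1, Col3a1, Thy1 and Vim among them, had a log2 signal of at least 8 on every array, against 0 of 16 macrophage and leukocyte, 0 of 13 endothelial, 0 of 12 epithelial, 0 of 15 skeletal muscle and 0 of 9 adipocyte markers. Neural and glial markers had 1 of 15, Ncam1, and cartilage and bone markers 3 of 13. Of all autosomal genes 21.3% had such a signal. A marker that reaches this signal on only some arrays is not counted.

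At least 2-fold higher without Smurf2 in both late pairs were 3 of 30 mitosis, 1 of 30 DNA replication and 0 of 22 DNA repair genes. Of all autosomal genes 0.379% were. Promoters of 4 cell division genes that were higher in both late pairs are shown. They were chosen from members of the mitosis, DNA replication and interferon lists with an entry in the RefSeq promoter table (GRCm38.p6). Genes of a particular chromosome were left out of this choice whatever their values. Of the remaining members, these 4 had the largest difference common to both late pairs. Each promoter runs from 250 bases before to 50 bases after the annotated start. Capitals mark the cell cycle homology region, or CHR (TTTGAA), through which promoters of mitotic genes are held off in resting cells, the CCAAT box (CCAAT), the E2F site and the core of the interferon-stimulated response element, on either strand.
Hmmr (chr11:40733388-40733687, minus strand): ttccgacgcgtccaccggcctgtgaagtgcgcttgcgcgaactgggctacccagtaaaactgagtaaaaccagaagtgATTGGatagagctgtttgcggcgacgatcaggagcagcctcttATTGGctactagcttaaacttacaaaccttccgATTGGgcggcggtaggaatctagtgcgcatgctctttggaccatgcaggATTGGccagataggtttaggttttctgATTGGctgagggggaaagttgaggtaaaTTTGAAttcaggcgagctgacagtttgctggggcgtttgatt
Ccnb2 (chr9:70421505-70421804, minus strand): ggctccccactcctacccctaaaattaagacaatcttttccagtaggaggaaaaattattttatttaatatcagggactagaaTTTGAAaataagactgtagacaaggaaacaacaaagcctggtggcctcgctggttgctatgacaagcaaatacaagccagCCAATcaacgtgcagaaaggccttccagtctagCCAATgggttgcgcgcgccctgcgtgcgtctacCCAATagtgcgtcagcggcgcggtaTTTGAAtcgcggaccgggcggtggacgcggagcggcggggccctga
Bub1b (chr2:118597961-118598260, plus strand): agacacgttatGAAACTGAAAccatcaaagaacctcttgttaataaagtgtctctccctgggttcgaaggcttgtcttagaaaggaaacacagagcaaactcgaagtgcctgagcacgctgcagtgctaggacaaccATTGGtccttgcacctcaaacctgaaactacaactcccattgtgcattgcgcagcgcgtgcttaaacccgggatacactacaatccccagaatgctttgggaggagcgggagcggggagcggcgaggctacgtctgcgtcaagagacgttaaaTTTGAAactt
Aurka (chr2:172370521-172370820, minus strand): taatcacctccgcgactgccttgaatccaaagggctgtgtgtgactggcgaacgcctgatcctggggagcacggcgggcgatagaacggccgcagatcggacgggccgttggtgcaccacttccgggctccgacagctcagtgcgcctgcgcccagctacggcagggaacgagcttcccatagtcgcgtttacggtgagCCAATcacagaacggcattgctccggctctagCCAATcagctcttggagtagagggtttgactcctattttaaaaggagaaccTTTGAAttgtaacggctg
Each of the 4 windows held a CHR, within the 50 bases after the start, and at least 1 CCAAT box, 5 of them in Hmmr. Of the 4 genes Aurka, with late differences of 1.003 and 0.966, lay just under 2-fold in mixed BL. Of 24 mitosis list members with a promoter in the table, 17 (70.8%) held a CHR and 19 (79.2%) a CCAAT box, against 12.8% and 37.5% of the promoters of all 13249 measured autosomal genes with an entry. Of 25 DNA replication list members, 9 (36%) held an E2F site, against 2.54%, and 2 (8%) a CHR. Among all shared genes the difference was smaller: the CHR was found in 11 of 50 promoters (22%) of the genes higher in both late pairs and in 14 of 84 (16.7%) of the genes lower in both. The E2F site was found in 2% and 2.38% of these promoters, near the 2.54% of all. For the CCAAT box the shares were 42% and 28.6%, against 37.5%. These shares describe letters in a window and were not tested.

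Over all genes, the differences in the late pairs were only loosely related between backgrounds. Across all autosomal genes, Pearson's r between the C57B6 and the mixed BL difference was 0.239 (Spearman's rank correlation 0.183) at late passage and 0.133 (rank correlation 0.120) at early passage, a description over genes that share arrays within a pair. A gene was counted as shared when it differed by at least 1 on the log2 scale in the same direction in both pairs, a rule of size with no test behind it. By it, 64 genes were higher without Smurf2 (0.379% of autosomal genes) and 122 were lower (0.722%). At early passage the same rule gave 2 (0.0118%) and 15 (0.0887%). In a single late pair, 2.08% of autosomal genes were at least 2-fold higher and 3.47% lower in C57B6, and 2.15% higher and 2.43% lower in mixed BL. In a single early pair, 0.485% were higher and 1.06% lower in C57B6, and 0.16% higher and 0.408% lower in mixed BL. The standard deviation of the differences over genes was 0.503 and 0.476 in the late pairs and 0.294 and 0.212 in the early pairs. A fixed limit thus takes in more genes at late passage. At any size, 28.4% of the genes were higher and 22.8% lower in both late pairs. Limma, fitted over 22536 features with background as a block, called 0 features (0%) for the late difference at an adjusted p under 0.05, with 2851 at an unadjusted p under 0.05. It also called 0 (0%) for the interaction of genotype with passage class (1114 unadjusted) and 0 (0%) for that of genotype with background (722 unadjusted). For a single gene, 2 arrays against 2 allow an exact two-sided permutation p of no less than 0.33. No difference below therefore passed a test. The smallest adjusted p at late passage was 0.110. Since the labels do not say that late and early arrays are separate cultures, these p-values measure the spread between arrays.

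**Figure D1:**
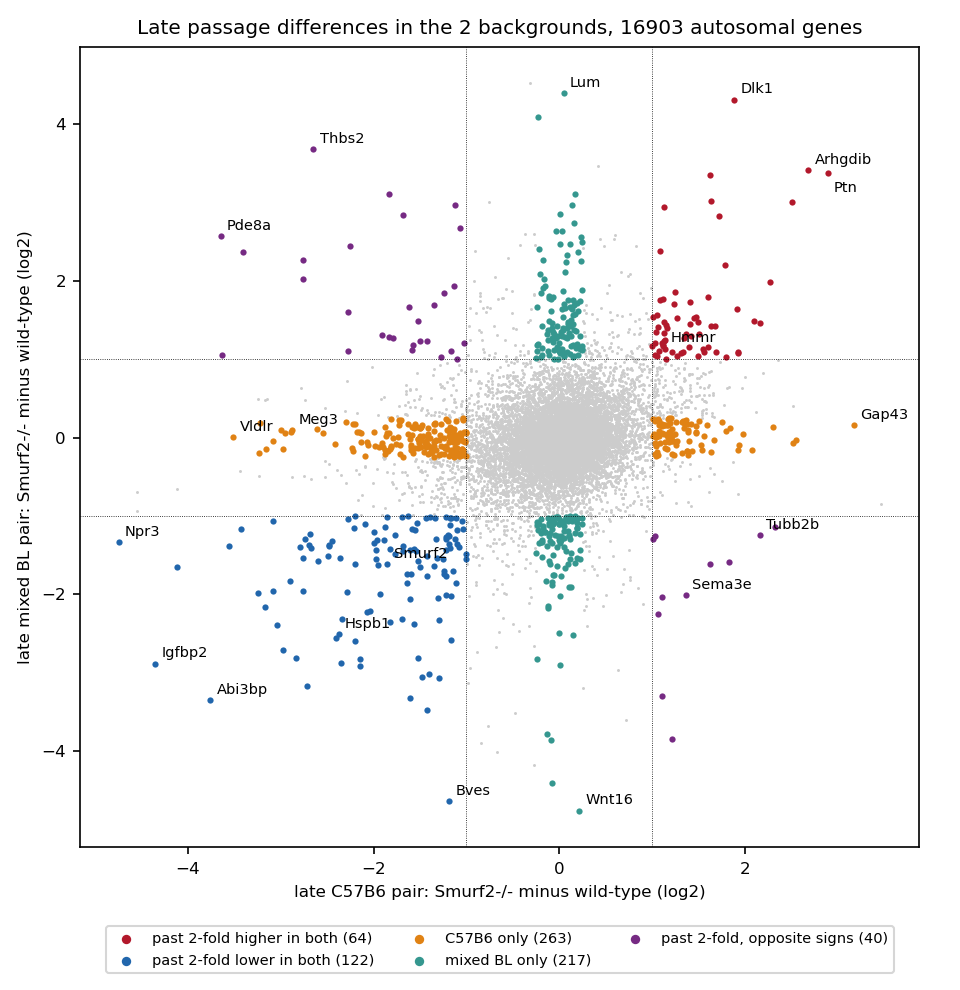
Difference between Smurf2-/- and wild-type (log2) at late passage in C57B6 (horizontal) and in mixed BL (vertical), 1 point per autosomal gene, with dotted lines at 2-fold. Coloured points are the 64 genes higher and 122 lower in both backgrounds, the 263 and 217 genes past 2-fold in C57B6 or mixed BL only, and the 40 with opposite signs; the grey cloud of the other genes shows little slope.

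Mitotic genes were higher in both late pairs throughout the list. All 30 measured members of the mitosis list were above 0 in both (28.4% of all autosomal genes were), with a median difference of 1.09 in C57B6 and 0.75 in mixed BL, against 0.08 and -0.03 over all autosomal genes. Of the 30, 3 passed 2-fold in both (0.379% of all autosomal genes were 2-fold higher in both). Limma called 0 of the 30, and 28 had an unadjusted p under 0.05, as had 2314 of the 16903 autosomal genes. Hmmr, a microtubule-binding protein of the spindle, stood at 0.51 and 0.67 on the late Smurf2-/- arrays and at -0.63 and -0.46 on the late wild-type arrays. The 2 backgrounds gave the same difference, 1.14 and 1.14 (2.20-fold overall), with a limma adjusted p of 0.110. Ska3, a subunit of the complex that ties kinetochores to microtubules, stood at 1.10 and 1.24 against -0.37 and -0.30, a difference of 1.51 ± 0.11 (SE, adjusted p 0.110). Kntc1, a kinetochore component of the spindle checkpoint that, like Ska3, was not on the list, stood at 1.20 and 0.95 against 0.04 and -0.45. The late Smurf2-/- arrays were the highest for these 3 genes. For Hmmr and Ska3 the late wild-type arrays were also the lowest, with the early arrays of Hmmr between -0.13 and 0.11. Within each background the early genotypes lay close together: early differences were -0.05 and -0.04 for Hmmr, 0.16 and -0.06 for Ska3 and 0.19 and 0.18 for Kntc1. Top2a, the topoisomerase that untangles chromosomes, differed by 1.05 and 0.89, and Bub1b, a checkpoint kinase, by 1.00 and 1.17. Bub1b lay just inside the 2-fold limit for the smaller of its differences and Rad51c, a DNA repair gene at 0.97 and 1.20, just outside. Other shared genes of this kind, grouped by role after their values were seen, were the cyclin Ccnb2 (1.79 and 1.03), the condensin subunit Ncapd2 (1.55 and 1.13), the checkpoint genes Trip13 (1.93 and 1.09) and Zwilch (1.04 and 1.21), and the kinetochore gene Knstrn (1.12 and 1.18).

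Of 30 DNA replication genes, 23 were above 0 in both late pairs (28.4% of all autosomal genes were) and 0 below 0 in both (22.8%). Their medians were 1.05 in C57B6 and 0.25 in mixed BL. A total of 16 passed 2-fold in C57B6 and 1 in mixed BL, where 2.08% and 2.15% of all autosomal genes were 2-fold higher. That 1 was Pole, the catalytic subunit of the leading-strand polymerase, at 1.20 and 1.04 on the late Smurf2-/- arrays and 0.09 and -0.17 on the wild-type arrays. Ccne1, the cyclin of S phase entry, differed by 1.06 and 0.81, and Cdt1, which licenses replication origins, by 1.30 and 0.82. Rrm2, the small subunit of ribonucleotide reductase, was high in C57B6 only, at 1.17 against -0.91, while in mixed BL it stood at -0.37 against -0.20. Of 22 DNA repair genes, 19 were above 0 in both late pairs, again against 28.4%, with medians of 0.87 and 0.56. The Fanconi anaemia genes Fanci (1.20 and 0.93) and Fancd2 (1.48 and 0.88) had the larger values there. In the early pairs the medians of the mitosis, replication and repair lists lay between -0.01 and 0.15. Their regulators stood closer to 0: over 22 Rb, E2F and CDK inhibitor genes the medians were 0.08 and 0.11. Among them Cdk6, a kinase of the G1 phase, differed by 0.77 and 2.09. Cdkn2a, which encodes the senescence inhibitors p16 and p19Arf, differed by 0.04 and 0.96.

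**Figure D2:**
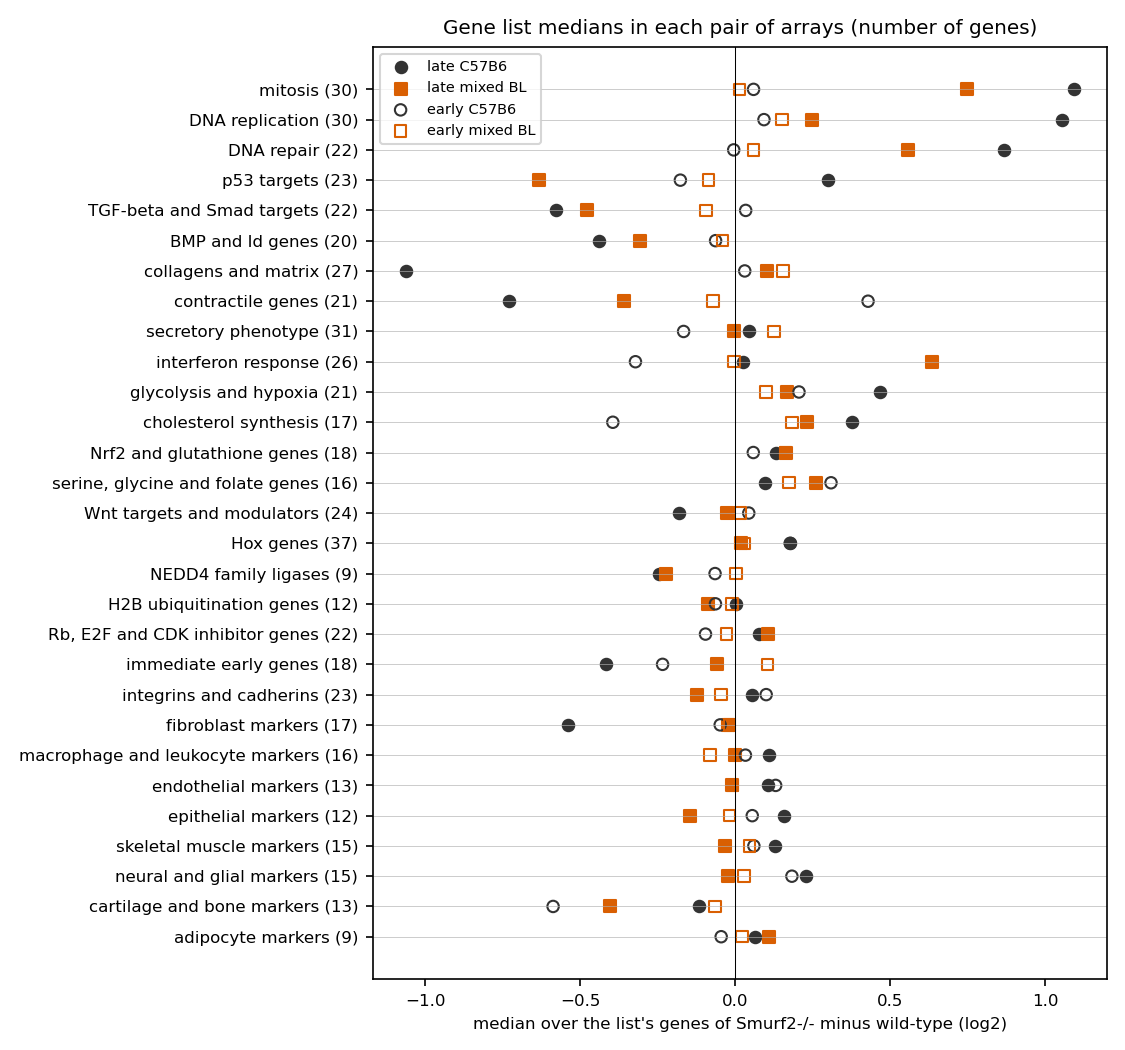
Median difference between Smurf2-/- and wild-type (log2) over the genes of each list, in each of the 4 pairs of arrays; filled symbols are late and open symbols early pairs, circles C57B6 and squares mixed BL, with the number of genes in brackets. Mitosis, DNA replication and DNA repair lie to the right in both late pairs, TGF-beta, BMP and contractile lists to the left, and p53 targets and matrix genes on opposite sides of 0.

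Genes of varied function had larger shared differences than the mitotic genes. Ptn, the heparin-binding growth factor pleiotrophin, stood at 0.43 and 0.24 on the late Smurf2-/- arrays and at -2.46 and -3.13 on the late wild-type arrays, 8.79-fold apart (3.14 ± 0.59, SE, limma adjusted p 0.176). Here the wild-type arrays were the outlying ones, since the 4 early arrays lay between -0.37 and 1.27. Arhgdib followed the same course, at 0.68 and 0.45 against -2.01 and -2.96. So did Edil3, an integrin ligand of the matrix, at -0.01 and 0.18 against -2.51 and -2.82, with early arrays between -0.55 and 0.34. Vcam1, an adhesion molecule for leukocytes, stood at -0.14 and 0.60 against -2.41 and -1.38. In Dlk1, Sema5a and Ramp3 both late Smurf2-/- arrays lay above the other 6. Dlk1, the imprinted Notch family ligand that holds back adipocyte differentiation, stood at 1.97 and 3.07 against 0.08 and -1.24, a 3.70-fold difference in C57B6 and 19.9-fold in mixed BL. Sema5a, a guidance cue, stood at 1.09 and 1.54 against -0.70 and -0.67 (2.00 ± 0.15, SE, limma adjusted p 0.110). Ramp3, a partner of the calcitonin receptor-like receptor, stood at 1.51 and 1.68 against -0.09 and -0.11. For Sema5a the late wild-type arrays also lay below the early arrays. Has2, which makes hyaluronan, stood at 0.43 and 1.05 against -1.30 and -1.77, with the late wild-type arrays the lowest of the 8. Cd34, a surface sialomucin of stem and stromal cells, differed by 1.63 and 3.36, and only its mixed BL Smurf2-/- array, at 2.54, lay above the early arrays. Among genes grouped by role after their values were seen, 4 that are known to be induced by ERK signalling were shared: the phosphatase Dusp6 (1.04 and 1.35), the inhibitor Spry2 (1.05 and 1.04) and the ETS factors Etv1 (1.41 and 1.46) and Etv4 (1.37 and 1.33). The list of 18 immediate early genes, many of which ERK signalling also induces, lay the other way in C57B6, with a median of -0.42. In mixed BL its median was -0.06, near the -0.03 of all autosomal genes, with 3 past 2-fold higher (2.15% of all autosomal genes were) and 0 lower (2.43%). Of the 18, 10 were below 0 in both late pairs (22.8%) and 3 above 0 in both (28.4%). In this list Egr1 differed by -0.51 and -0.41 and Fosl1 by 0.28 and 1.04. The EGF receptor ligand Ereg differed by 1.25 and 1.86 and the receptor Met by 1.40 and 1.16. Dusp6 and Spry2 had standard errors of 0.86 and 0.58 and limma adjusted p of 0.665 and 0.554, so they stand less clearly apart than the mitotic genes. The 2 clusters of Etv1 differed by 0.91 and 1.90 in C57B6 and by 1.27 and 1.64 in mixed BL.

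**Figure D3:**
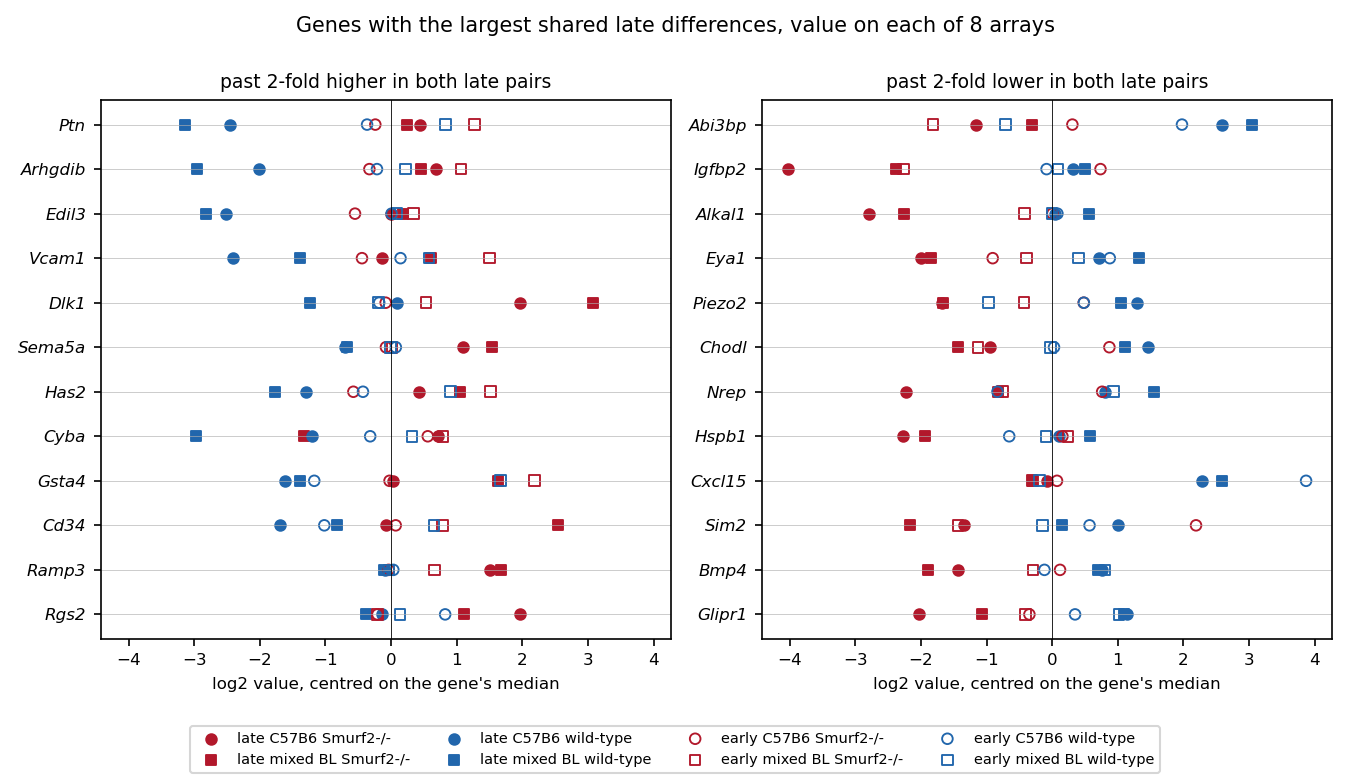
Centred log2 value on each of the 8 arrays for the 12 genes higher (left) and the 12 lower (right) without Smurf2 in both late pairs with the largest shared difference. Filled symbols are late and open symbols early arrays, red Smurf2-/- and blue wild-type, circles C57B6 and squares mixed BL; for Ptn, Arhgdib and Edil3 the late wild-type arrays stand apart to the left, for Alkal1, Hspb1 and Bmp4 the late Smurf2-/- arrays do.

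Components and targets of BMP signalling were among the shared lower genes. Bmp4, the ligand, stood at -1.44 and -1.90 on the late Smurf2-/- arrays and at 0.76 and 0.69 on the late wild-type arrays, 5.26-fold lower (-2.40 ± 0.36, SE, limma adjusted p 0.142). The inhibitors of basic helix-loop-helix factors Id2 and Id3, direct BMP targets, stood at -1.13 and -1.50 against 0.22 and 0.14, and at -0.92 and -1.40 against 0.26 and -0.15. Smad6, the inhibitory Smad of the pathway, differed by -1.18 and -1.12, Id1 by -1.38 and -0.75, and Atoh8, a transcription factor, by -0.95 and -1.27. On each of these genes both late Smurf2-/- arrays lay below both late wild-type arrays. Of 20 BMP and Id genes, 10 were below 0 in both late pairs (22.8% of all genes were), 3 above 0 in both (28.4%) and 4 past 2-fold lower in both (0.722%). Their medians were -0.44 and -0.31, and 0 were called. The type I receptor gene Bmpr1a differed by -0.41 in C57B6 and -0.50 in mixed BL, whereas Grem1, the secreted BMP antagonist, went in opposite directions. Of 22 TGF-beta and Smad targets, 15 were below 0 in both late pairs (22.8% of all genes were) and 0 above 0 in both (28.4%). In this list 0 passed 2-fold in both, near the shares of all genes (0.379% higher, 0.722% lower). The medians were -0.58 and -0.48. Ccn2, the connective tissue growth factor, stood at -1.93 and -1.36 against -0.12 and -0.79, and Ccn1, its relative, at -1.20 and -1.01 against 0.10 and -0.14. Postn, the matrix protein periostin, was far apart in C57B6, at -4.29 against -0.17, and closer in mixed BL, at 0.35 against 1.01. The ligand gene Tgfb3 was shared (-1.68 and -1.39), but its early differences were 1.65 and -1.50, so the early pairs disagreed. Smurf1, the paralog of Smurf2, differed by -0.08 and 0.57, with both late Smurf2-/- arrays near 0.

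Of 21 contractile and smooth muscle genes, 16 were below 0 in both late pairs (22.8% of all autosomal genes were) and 2 above 0 in both (28.4%). The list medians were -0.73 and -0.36, with 3 genes past 2-fold lower in both (0.722% of all autosomal genes were) and 0 called. Myl9, a regulatory myosin light chain, stood at -3.12 and -1.56 on the late Smurf2-/- arrays and at -0.04 and 0.40 on the wild-type arrays (-2.52 ± 0.45, SE, adjusted p 0.170). The actin-binding calponin gene Cnn1 stood at -2.83 and -0.70 against -0.23 and 0.87, and Tagln, or transgelin, at -1.12 and -1.42 against 0.07 and -0.07. Acta2, the smooth muscle actin of myofibroblasts, differed by -0.79 and -0.79. At early passage the list stood higher without Smurf2 in C57B6, with a median of 0.43, and near 0 in mixed BL, at -0.07. Early differences of Myl9, Cnn1 and Tagln in C57B6 were 1.07, 1.41 and 1.04, opposite to the late ones, and -0.31, 0.01 and -0.18 in mixed BL. Over the 17 fibroblast markers the medians were -0.54 and -0.03 in the late pairs, with 7 past 2-fold lower in C57B6 (3.47% of all autosomal genes were) and 6 past 2-fold higher in mixed BL (2.15%). Their part in these differences was not tested.

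Abi3bp and Igfbp2 had the largest mean late differences among the shared lower genes. Abi3bp, a matrix protein that binds integrins, stood at -1.17 and -0.31 against 2.59 and 3.05, 11.8-fold lower (-3.56 ± 0.98, SE, limma adjusted p 0.268). The early pairs differed the same way for this gene, by -1.67 and -1.10. Igfbp2, a binding protein of insulin-like growth factors, stood at -4.03 and -2.39 against 0.32 and 0.50, 12.3-fold lower. Its early pairs went in opposite directions, at 0.82 and -2.36. Igf1 (-2.04 and -2.22) and Igf2 (-1.60 and -3.33), the ligands, and Pappa (-3.08 and -1.07), a protease that frees them, were lower too, a group formed after the values were seen. Hspb1, the small heat shock protein Hsp27, stood at -2.28 and -1.94 against 0.10 and 0.57 on the late arrays, 5.44-fold lower with a standard error of 0.14 and a limma adjusted p of 0.110. It was 0.81 and 0.34 higher in the early Smurf2-/- arrays, and of the named genes it had the smallest adjusted p for the interaction with passage class, 0.456. Alkal1, a ligand of the receptor ALK, stood at -2.79 and -2.26 against 0.05 and 0.56, with the same difference in both backgrounds, -2.84 and -2.82. Eya1, a transcriptional coactivator of organ development, stood at -2.0 and -1.84 against 0.71 and 1.32. Piezo2, a mechanosensitive channel, stood at -1.69 and -1.66 against 1.29 and 1.05, and its 3 clusters ran alike in both pairs. Cartilage genes also appeared, Col2a1 at -2.76 and -1.96 and Col11a1 at -1.56 and -1.42, though the list of cartilage and bone markers had medians of only -0.12 and -0.40. Acute phase and complement genes, grouped after the values were seen, were lower by similar amounts in both backgrounds: C4b by -1.42 and -1.51, Hp by -1.25 and -1.55 and Lbp by -1.60 and -1.74. Their early C57B6 differences were as large or larger, at -2.13, -1.30 and -2.58, and their early mixed BL differences were 0.16, 0.07 and -0.12. Just outside the limit lay Nedd4l, a ligase of the Smurf2 family, at -0.99 and -1.62, and Ccn4, at -1.91 and -0.99. Msrb1 and Myom1, with -1.001 and -1.005 in mixed BL, lay just inside.

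The early arrays, which the rule did not use, gave small differences of the same sign for part of these genes. The median early difference of the 64 shared higher genes was 0.10 in C57B6 and 0.24 in mixed BL, and 28 of them (43.8%) were above 0 in both early pairs, against 28.1% of all autosomal genes. For the 122 shared lower genes it was -0.21 and -0.40, with 62 (50.8%) below 0 in both, against 25.9%. Of the 64, 0 passed, and of the 122, 4 passed, 2-fold in both early pairs. The interaction with passage class was called for 0 of the 64 and 0 of the 122, as for 0% of all features. Among the 64 higher genes, the late Smurf2-/- arrays alone were above the other 6 arrays in 25, the late wild-type arrays alone were below the other 6 in 17, and both held in 11. Among the 122 lower genes the late Smurf2-/- arrays alone stood apart in 66, the late wild-type arrays alone in 18 and both in 8. The late values used here also chose these genes, so a late pair standing outermost is in part set by the rule. The same count over all autosomal genes was not made. From early to late passage, the median shift of the lower genes was -1.42 in C57B6 and -0.57 in mixed BL without Smurf2, and 0.01 and 0.55 in wild-type cells. Over all autosomal genes the median shifts were 0.08 and -0.01 without Smurf2, and 0.002 and 0.02 in wild-type cells. For the lower genes, chosen on the late values, the C57B6 shift lay on the Smurf2-/- side. In mixed BL their shifts were of similar size and opposite direction in the 2 genotypes. Which genotype moved was not tested. Shared genes were spread over the autosomes, from 0.610% of the genes of chromosome 11, which carries Smurf2, to 1.92% of those of chromosome 10. Signal was at least 8 on all arrays for 14.1% of the shared higher and 27.1% of the shared lower genes, against 21.3% of all autosomal genes. Most of both groups thus fell below 8 on at least 1 array, as did most of all autosomal genes. The distance of the shared genes from background is not known here.

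In C57B6 alone, 92 genes were at least 2-fold higher without Smurf2 (0.544% of autosomal genes) and 171 lower (1.01%), with under 0.25 of difference in mixed BL. With 1 array per genotype in a background there is no test, and the interaction of genotype with background in limma averages early and late arrays. Gap43, a growth cone protein, stood at 1.24 on the late Smurf2-/- C57B6 array and at -1.94 on its wild-type partner, while in mixed BL the values were 0.58 and 0.42. Its early differences were 1.20 in C57B6 and 1.20 in mixed BL, so the early pairs gave the same value in both backgrounds. Zic1, a zinc finger transcription factor of neural development, stood at 2.23 against -0.33 in C57B6 and differed by 1.61 there at early passage too. Myct1 (2.52) and the sulfotransferase gene Chst1 (1.99) differed by 0.26 and -0.88 at early passage. Among the lower genes, Vldlr, a lipoprotein receptor, stood at -2.82 against 0.69 in C57B6, 11.4-fold apart, and at 0.03 against 0.02 in mixed BL. Cemip, which degrades hyaluronan, stood at -2.89 against 0.33 and at 0.10 against -0.08. Ltbp2, of the family that anchors latent TGF-beta in the matrix, stood at -2.72 against 0.17 and at -0.91 against -0.99. For Vldlr and Cemip the late Smurf2-/- C57B6 array was the lowest of the 8.

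In mixed BL alone, 114 genes were at least 2-fold higher (0.674%) and 103 lower (0.609%). Lum, the matrix proteoglycan lumican, stood at 3.89 on the late Smurf2-/- array and at -0.51 on the wild-type array, 21.1-fold apart, and at -0.47 and -0.52 in C57B6. Dcn, the related proteoglycan decorin, which the 0.25 limit left out of this group, stood at 2.44 against -2.09 in mixed BL and at -2.49 against -2.17 in C57B6. Igfbp6 stood at 3.08 against -1.01, and was higher at early passage as well, by 1.46. Gatm, of creatine synthesis, stood at 2.54 against -0.43, and Tnfaip2 at 1.16 against -1.96. On the lower side a single array set several values: Wnt16, a Wnt ligand, stood at 4.59 on the late wild-type mixed BL array and between -0.23 and 0.83 on the other 7. Vit, the matrix protein vitrin, stood at 4.25 there and at 1.00 or below elsewhere, and Pcdhb7, a protocadherin, at 4.07 and at 0.30 or below elsewhere. Tll1, a protease related to BMP1, stood at -3.15 on the late Smurf2-/- mixed BL array against 0.71, and Cyp1b1, a cytochrome P450, at -2.27 against 0.62.

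Opposite late differences past 2-fold were found in 40 genes. In 11 of them (0.0651% of autosomal genes) Smurf2-/- was higher in C57B6 and lower in mixed BL, and in 29 (0.172%) the reverse. Thbs2, a matrix glycoprotein, stood at -2.96 against -0.31 in C57B6 and at -0.42 against -4.10 in mixed BL, where the wild-type array was the low one. Pde8a, a cyclic AMP phosphodiesterase, stood at -2.83 against 0.82 and at 0.41 against -2.16. Niban1 stood at -2.01 against 1.40 and at 0.78 against -1.58. Grem1 stood at -4.68 against -1.92 and at 0.35 against -1.92, so its 2 late wild-type arrays were equal. In the other direction, Tubb2b, a tubulin, stood at 1.12 against -1.04 and at -0.29 against 0.95, Slc25a13, a mitochondrial carrier, at 1.43 against -0.41 and at -1.23 against 0.36, and Sema3e at 1.37 against 0.01 and at -2.02 against -0.01. Zim1, an imprinted zinc finger gene, stood at 0.61 against -1.01 and at -0.27 against 1.34. The difference between backgrounds at late passage was not tested. Averaged over passages, limma gave these 8 genes an adjusted p of 0.946 for the interaction with background.

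**Figure D4:**
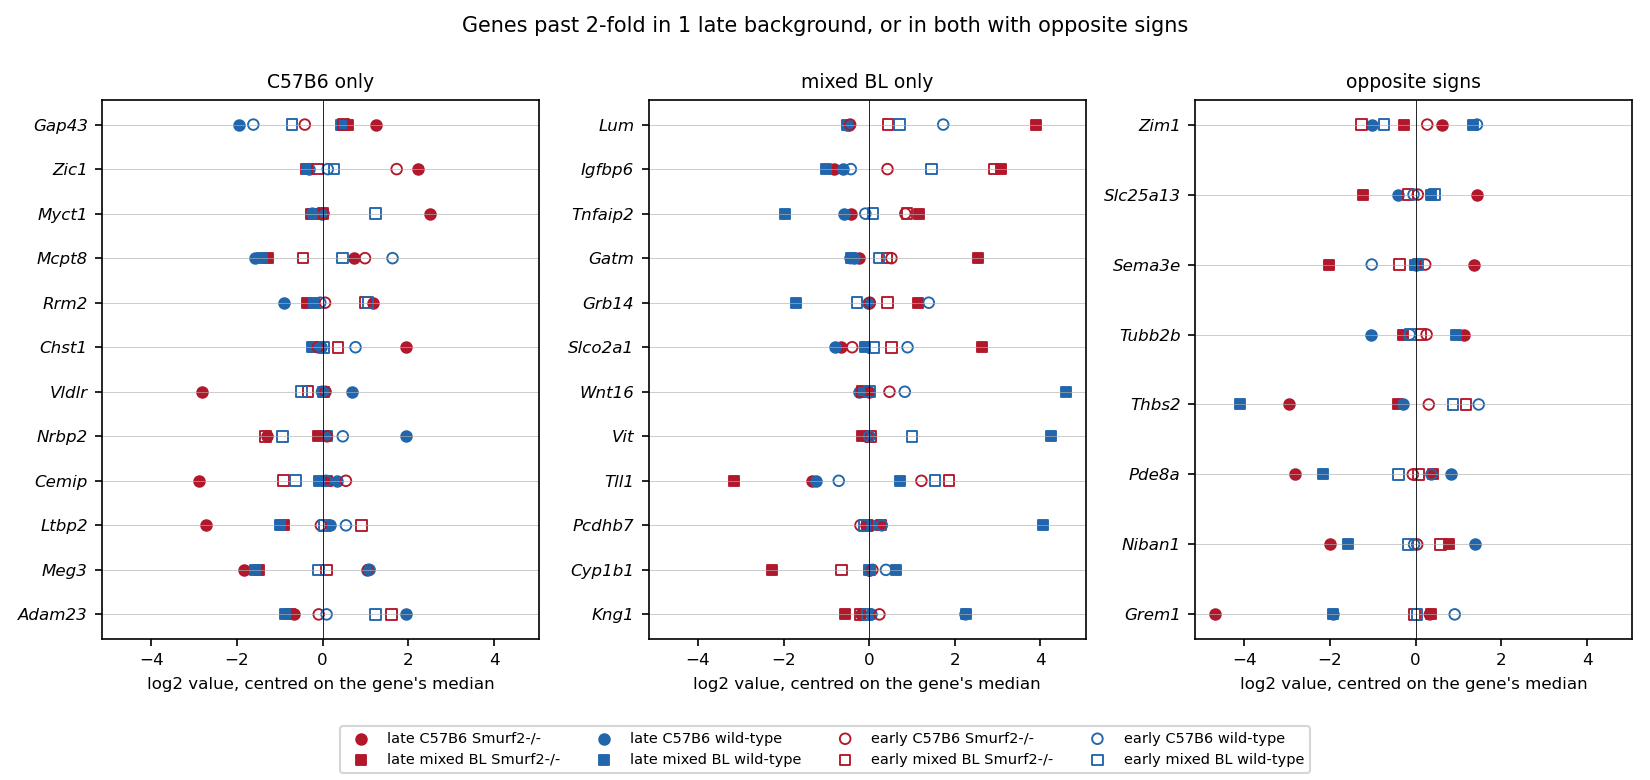
Centred log2 value on each of the 8 arrays for genes past 2-fold in late C57B6 only, in late mixed BL only, and in both with opposite signs; filled symbols are late and open symbols early arrays, red Smurf2-/- and blue wild-type, circles C57B6 and squares mixed BL. Wnt16, Vit and Pcdhb7 each show 1 high array, the late wild-type mixed BL array, while for Grem1 both late wild-type arrays lie at the same value.

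Some list medians lay apart in the late backgrounds, a difference that was not tested. Over 23 targets of the tumour suppressor p53, the median was 0.30 in C57B6 and -0.63 in mixed BL. Of these, 2 genes were above 0 in both pairs (28.4% of all autosomal genes were) and 4 below 0 in both (22.8%). Phlda3, an inhibitor of Akt, stood at -0.09 against -0.50 in C57B6 and at -1.45 against -0.27 in mixed BL, and Zmat3, an RNA-binding target, at -0.24 against -0.59 and at -1.23 against -0.03. Mdm2, the ligase that degrades p53 and is itself its target, differed by 0.08 and -0.83. Perp (-1.95 and -1.62), a desmosomal and apoptosis gene, and Fas (-1.18 and -0.84), the death receptor, were lower in both. Over 27 collagen and matrix genes, the median was -1.06 in C57B6, where 14 passed 2-fold lower (3.47% of all autosomal genes did), and 0.10 in mixed BL, where 1 did (2.43%) and 7 passed 2-fold higher (2.15%). Col3a1, a fibrillar collagen, stood at -0.67 against 0.83 and at -0.01 against 0.01, and Col6a3 at -0.77 against 0.40 and at 0.25 against -0.86. Sparc, a collagen-binding protein, differed by -1.15 and -0.44, and Fbln5, an elastic fibre protein, by -2.13 and -0.98. Over 26 interferon response genes, the median was 0.02 in C57B6 and 0.64 in mixed BL, where 7 passed 2-fold higher (2.15% of all autosomal genes did) and 0 lower (2.43%). Rtp4, an interferon-induced gene, stood at 1.72 against -0.09 in mixed BL and at -0.05 against 0.05 in C57B6, and Irf7, the interferon regulatory factor, at 1.20 against -0.09 and at -0.01 against -0.23. Of 12 H2B ubiquitination genes, 0 passed 2-fold in either late pair, a count near the background given the few genes past 2-fold overall. Rnf20, the ligase for H2B that Smurf2 is known to target, differed by 0.00 and -0.22. Macrophage, endothelial, epithelial, skeletal muscle and adipocyte marker lists had late medians between -0.15 and 0.16 in either pair. Single markers lay far from 0, such as Krt19 at 2.52 and Tnni1 at 1.53 in C57B6, and Fabp4 at 1.90 and Flt1 at 1.045 in mixed BL. Mef2c, of the skeletal muscle list, was 2-fold higher in both (1.14 and 1.24, limma adjusted p 0.110). Over the 15 markers of neurons and glia the median was 0.23 in C57B6 and -0.02 in mixed BL, with 4 past 2-fold higher in C57B6 (Stmn2 3.47, Gap43 3.18, Nes 1.93 and Ncam1 1.61), against 2.08% of all autosomal genes. These markers were named after their values were seen, and their part in other differences was not tested.

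The Dlk1-Meg3 locus of chromosome 12 held 17 of the 171 genes lower in C57B6 alone. It is an imprinted region in which Dlk1 is expressed from the paternal chromosome and the noncoding RNAs Meg3 and Rian, with a long series of microRNAs, from the maternal one. The microRNAs were chosen for description after their values were seen, and the array's probes measure the gene or its precursor and not the mature arms. Meg3 stood at -1.83 on the late Smurf2-/- C57B6 array and at 1.04 on its wild-type partner, 7.34-fold lower, and at -1.48 and -1.58 in mixed BL. Rian stood at -0.66 against 1.64 and at -1.39 against -0.81. Of 38 measured microRNA genes of the locus, 36 were below 0 in the late C57B6 pair and 21 were at least 2-fold lower (3.47% of all autosomal genes were), with a median difference of -1.30. In the late mixed BL pair the median was -0.06 and 0 were 2-fold lower, and in the early pairs the medians were 0.06 and 0.11. Of the 143 measured autosomal microRNA genes elsewhere, 8 were 2-fold lower in late C57B6, with a median of 0.02. The mature sequences of the 5 microRNA genes with the largest difference, 1 arm each, are shown with their seeds (bases 2 to 8) in capitals. These seeds differ from each other, as nearly all seeds of the locus do. Sequences are from RefSeq (GRCm38.p6).
miR-382-5p: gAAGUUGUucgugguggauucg
miR-300-3p: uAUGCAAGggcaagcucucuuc
miR-377-3p: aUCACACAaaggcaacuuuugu
miR-380-3p: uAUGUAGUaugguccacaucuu
miR-329-3p: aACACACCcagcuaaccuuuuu
Mir382 stood at -1.43 on the late Smurf2-/- C57B6 array and at 1.73 on the wild-type array, Mir300 at -1.31 and 1.77, Mir377 at -1.57 and 1.43, Mir380 at -1.16 and 1.81, and Mir329 at -1.07 and 1.88. In mixed BL both late arrays were low: Mir382 stood at -1.35 and -1.20, against 0.16 and -0.16 on the early arrays. The late wild-type C57B6 array had kept the early C57B6 values (Mir382 at 1.76 and 1.69 there), so of the 4 late arrays it alone was high. All 38 microRNA genes had mature sequences in the table, 73 arms with 72 seeds, and a single seed was shared by different genes. That pair is Mir411 (late C57B6 difference -0.82) and Mir379 (-0.38).
miR-411-3p: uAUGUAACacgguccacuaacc
miR-379-3p: uAUGUAACaugguccacuaacu
Dlk1, next to Meg3 and expressed from the other parental chromosome, was higher in both backgrounds as given above. Rtl1, a paternally expressed gene on the far side of Meg3, differed by -0.16 and -0.02.

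**Figure D5:**
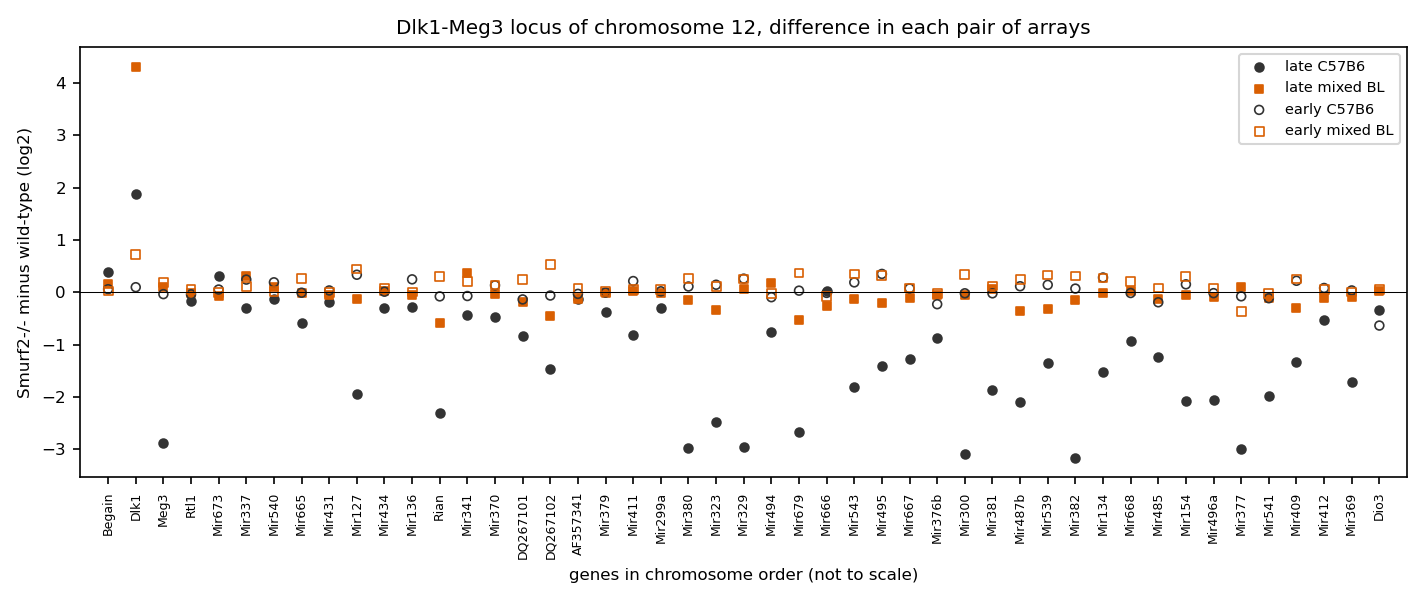
Difference between Smurf2-/- and wild-type (log2) for each measured gene of the Dlk1-Meg3 locus, in chromosome order from Begain to Dio3 and not to scale; filled symbols are late and open symbols early pairs, circles C57B6 and squares mixed BL. The late C57B6 pair lies below 0 for Meg3, Rian and 36 of 38 microRNA genes, while the microRNA genes lie between -0.53 and 0.37 in the late mixed BL pair, and Dlk1 is the only gene past 2-fold higher in both late pairs.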

How the data were processed

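RNA of 8 samples was hybridised to 1 Affymetrix array each. The deposited log2 values have a median of 0 over the 8 arrays in every cluster, a centring made by the authors before deposit. How signals were normalised and summarised is not given in the sources used here. Genome builds mm8 and mm9 appear in the submitters' processing notes, with their use unstated. An exon array is named in the series design, but probe identifiers were those of a gene-level array, whose annotation named the genes together with RefSeq (GRCm38.p6). Of 24169 clusters, 19134 had 1 symbol; a gene's value is the mean of its clusters. The size of the number step in the files showed which features had a log2 signal of at least 8 on all arrays.

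Limma 3.58.1 (R 4.3.3) was fitted to 22536 features on all 8 arrays with background as a block (3 residual degrees of freedom) and Benjamini-Hochberg adjustment, and was tested on simulated data. The background, which comes from the labels, is the replicate block of this fit. The number that ends each sample title separates early from late passage within a background and is not the block. Genes named were up to 12 per direction with the largest shared difference, 6 per direction for 1 background, 4 for opposite signs, 6 of smallest p, 4 per list and a few of known relevance. Members, lists and tests were chosen with earlier results of these data known. The number of arrays limits precision.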

Additional observations from a re-analysis of the deposited data

Results flagged for a closer look

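In 8 named genes the late pairs moved past 2-fold in opposite directions, with a single pair per background and the difference not tested. The C57B6 difference minus the mixed BL difference was 3.24 for Zim1, 3.42 for Slc25a13, 3.38 for Sema3e and 3.41 for Tubb2b. It was -6.34 for Thbs2, -6.22 for Pde8a, -5.78 for Niban1 and -5.03 for Grem1. The median of the p53 targets had opposite signs in the late pairs, 0.93 higher in C57B6, also not tested. Clusters without a single symbol, which the comparisons left out, held 16 of 5035 past 2-fold in both late pairs, 3 higher and 13 lower, against 4 in both early pairs.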

How the results depend on the processing

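With 1 array per genotype and background, the counts of genes past 2-fold could not be given without a late array. In limma, leaving out each array in turn gave 0 to 0 calls for the late difference and both interactions, and the fit with no replicate block gave 1 late call, where the blocked fit gave 0. The 186 shared genes became 642 (263 higher, 379 lower) at 1.5-fold, 44 (11 and 33) at 3-fold and 42 (9 and 33) among genes with a log2 signal of at least 8. Quantile normalisation left 73 shared lower genes, and the share of higher calls was 44.3% there and 21.4% among bright genes, against 34.4%. The 480 genes of 1 background became 1666 at 1.5-fold, 139 at 3-fold, 102 among bright genes and 832 with a limit of 0.5 in the other background. Setting each array's autosomal median to 0, chosen after seeing the data, gave 59 and 125 shared genes. The correlation of the early pairs was 0.0734 after quantile normalisation. Over both late pairs, list medians moved for the p53 targets (0.30 in C57B6 alone), TGF-beta targets (-0.435 after quantile normalisation, -0.479 in mixed BL alone), BMP genes (-0.44 in C57B6 alone) and matrix genes (0.10 in mixed BL alone). Grem1 changed sign, to 0.23, after quantile normalisation. The cause was not tested.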
